A study of Mus musculus with 24 samples.

Results

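This report follows the response of E0771 cells to the cytokine TNF while BET proteins were inhibited. E0771 is a mouse breast adenocarcinoma line. The comparison set the 3 E0771 libraries that received RG6146 plus TNF (named the combination from here on) against the 3 E0771 libraries treated with RG6146 alone, which makes 6 of the 24 libraries of the series, and covered the 12541 genes that passed a filter on low counts. Both groups carried 2.5 µM RG6146 for 3 h, and they differed by 10 ng/mL recombinant murine TNF. The other E0771 groups, DMSO (the solvent control) and TNF alone, had 3 libraries each, and the same 4 treatments were given to MC38, a mouse colon adenocarcinoma line. The labels give no genotype or clone for either line, and the growth protocol names MC38-Ova cells for every sample, E0771 included. Nothing in the labels states where replicates came from, so the p-values measure the spread between these libraries, which may be technical.

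TNF binds its receptor on the cell surface and leads to the release of NF-kB transcription factors from inhibitors of the IkB family. NF-kB then enters the nucleus and raises the genes of chemokines, adhesion molecules and survival factors, along with its own inhibitors, which close the loop. BET proteins bind acetylated histones through their bromodomains and help RNA polymerase II to elongate, and RG6146 is a small molecule that blocks these bromodomains. The comparison asked which part of the TNF response could still be raised with the inhibitor present.

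The 6 libraries summed to between 5392406 and 5539841 counts. Mitochondrial ribosomal RNA took 2.37% to 2.77% of their counts, and between libraries of a group the chi-square per degree of freedom over genes was 1.62 to 3.22. The TNF libraries, which entered the shared estimate of spread, stood further apart at 13.5 to 47.0, and TNF replicate 2 held 0.376% mitochondrial ribosomal RNA. Summed leukocyte markers ranged from 14.3 to 18.1 CPM (counts scaled to a library total of 1000000) with RG6146 and from 16.5 to 18.3 CPM with the combination. Cd68 had 83 counts over the RG6146 libraries and 117 over the combination libraries, Lyz2 had 99 and 102 and Itgam 24 and 32. Laptm5 had 16 and 11, Ptprc 11 and 8, and Adgre1 was at 0 counts in both groups. The 3 leukocyte markers that passed the filter were all above 0, with a median log2 fold change of 0.46. Fibroblast markers summed to 43.5 to 48.7 CPM with RG6146 and 43.0 to 49.8 CPM with the combination, and endothelial markers to 44.1 to 48.6 and 38.4 to 50.1 CPM. None of the 11 leukocyte, fibroblast and endothelial markers that passed the filter was called by edgeR, DESeq2 or limma-voom, and 1 had an unadjusted p under 0.05, while edgeR's fit of the 6 libraries by themselves called Pdgfrb, a fibroblast marker, higher. Of the epithelial markers Krt8 had 1431 counts over the RG6146 libraries and 1454 over the combination libraries, whereas Epcam had 1 and 0 and Krt19 had 0 in both, so the epithelial label rested on Krt8. In bulk samples, fewer cells of a type and less RNA per cell cannot be told apart.

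TNF still raised 85 genes in the presence of RG6146 and lowered 7, which was 0.678% and 0.0558% of the genes tested and 0.734% together (edgeR quasi-likelihood test, Benjamini-Hochberg adjusted p under 0.05). Of these, 56 were at least 2-fold higher, 27 at least 4-fold and 6 at least 16-fold, and 4 were at least 2-fold lower. The 6 genes with a fitted change of at least 16-fold were Cxcl1, Cxcl2, Tnf, Matn4, Spib and Gm16685, and apart from Cxcl1 each had 0 to 5 counts over the RG6146 libraries. Matn4, which the counts here include, passed the filter only through the combination libraries, where it is high, so its call gives no support. Genes of neutrophil chemokines, IkB inhibitors, adhesion molecules and cytokines were among the 15 largest increases that the naming rule took. All 92 genes had groups that did not overlap, a state found in 10.0% of all tested genes in the upward and 9.07% in the downward direction. The median log2 fold change was 1.35 over the genes that rose and -0.0029 over all tested genes. A fit of the 6 libraries by themselves called 352 genes higher (2.92%) and 182 lower (1.51%), and the fit without all 3 TNF libraries called 302. The changes called from the 6 libraries were smaller, with medians of 0.46 for higher and -0.42 for lower genes. Of the 92 genes 91 were tested there and 91 were called. That fit reuses the libraries that made the calls, so this count gives no separate support. Genes with 0 to 5 counts over the RG6146 libraries could pass its filter only through the combination libraries, where they are high. Without RG6146 replicate 1 or replicate 3 the count of 92 became 58 or 57.

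**Figure D1:**
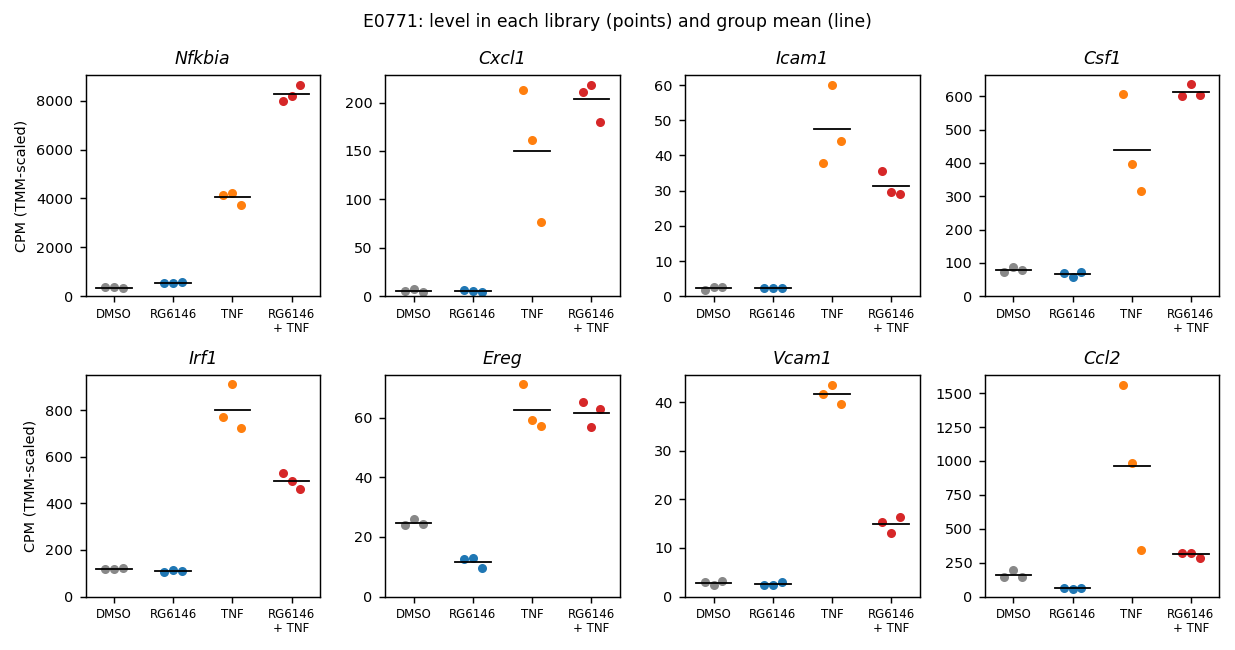
Level of 8 TNF-responsive genes in each of the 12 E0771 libraries, in CPM after TMM scaling (linear axes from 0), by treatment, with points for libraries and lines for group means. In every panel the 3 combination libraries lie above the 3 RG6146 libraries. Nfkbia, for example, goes from 547 to 566 CPM up to 8003 to 8654 CPM.

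Of the inhibitors that restrain NF-kB, Nfkbia, which encodes IkBα and is itself an NF-kB target, measured 547, 555 and 566 CPM in the RG6146 libraries and 8003, 8190 and 8654 CPM in the combination libraries. The groups lie far apart and each is tight. Nfkbia rose 14.9-fold (log2 fold change 3.90 ± 0.09 SE, n = 3 and 3 libraries, edgeR adjusted p = 2.42e-12), the smallest p among all genes tested. With TNF alone it stood at 4162, 4235 and 3724 CPM, below all 3 combination libraries. The test of the difference between the responses with and without RG6146 did not call Nfkbia. Nfkbie, which encodes IkBε, measured 1.29, 5.04 and 4.34 CPM with RG6146 and 29.4, 32.4 and 32.1 CPM with the combination (3.13 ± 0.28). Tnfaip3, which encodes the ubiquitin-editing enzyme A20, went from 1.29, 1.12 and 0.723 CPM to 9.78, 16.3 and 14.5 CPM (3.67 ± 0.48), and its partner gene Tnip1 rose by 1.43 ± 0.16. Nfkbiz, which encodes the nuclear IkB protein IkBζ, rose by 1.38 ± 0.17. In all, 5 of 14 tested genes of IkB proteins and feedback inhibitors rose and 9 were not called, with a median log2 fold change of 0.35. In the fit of the 6 libraries 7 of 14 rose, Bcl3 and Nfkbib being the additional genes. Whether nuclear IkB proteins such as IkBζ acted as inhibitors here was not tested.

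The promoters of 4 of these genes are shown because the data bear on genes that moved together and because each holds a narrow form of the kB motif, the sequence that NF-kB dimers bind. Each line gives the 250 bases before the start of transcription in RefSeq on GRCm38.p6 (mm10), 5′ to 3′ on the strand of the gene, with matches in capitals to GGG, any 2 bases and TTTCC, or on the other strand GGAAA, any 2 bases and CCC. Nfkbia is taken from chr12:55492648-55492897 on the minus strand, Csf1, a macrophage growth factor gene, from chr3:107760470-107760719 on the minus strand, Cxcl1 from chr5:90890995-90891244 on the plus strand and Cxcl2 from chr5:90903649-90903898 on the plus strand.
Nfkbia: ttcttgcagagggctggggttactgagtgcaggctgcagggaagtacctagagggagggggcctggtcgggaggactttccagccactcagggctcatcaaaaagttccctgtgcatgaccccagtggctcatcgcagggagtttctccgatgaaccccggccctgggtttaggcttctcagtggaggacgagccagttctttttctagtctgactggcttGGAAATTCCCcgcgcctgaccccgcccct
Csf1: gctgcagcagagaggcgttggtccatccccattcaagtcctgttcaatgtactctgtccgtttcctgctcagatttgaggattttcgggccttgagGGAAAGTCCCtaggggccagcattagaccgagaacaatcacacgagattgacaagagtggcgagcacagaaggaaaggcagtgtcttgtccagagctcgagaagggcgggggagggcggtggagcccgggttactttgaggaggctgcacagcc
Cxcl1: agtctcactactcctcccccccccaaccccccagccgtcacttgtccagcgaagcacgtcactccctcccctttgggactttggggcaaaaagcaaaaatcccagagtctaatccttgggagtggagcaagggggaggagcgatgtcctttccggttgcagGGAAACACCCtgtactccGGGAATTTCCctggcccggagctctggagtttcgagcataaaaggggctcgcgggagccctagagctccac
Cxcl2: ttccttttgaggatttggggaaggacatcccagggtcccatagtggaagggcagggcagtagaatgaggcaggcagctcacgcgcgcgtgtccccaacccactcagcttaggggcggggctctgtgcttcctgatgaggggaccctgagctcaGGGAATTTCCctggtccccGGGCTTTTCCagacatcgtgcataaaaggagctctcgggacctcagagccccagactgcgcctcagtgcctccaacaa
The match in Nfkbia lies 29 to 20 bases before the start, that in Csf1 154 to 145 bases before it. Cxcl1 holds 2 matches, at 89 to 80 and 71 to 62 bases before the start, and Cxcl2 also holds 2, at 97 to 88 and 78 to 69. The letters GGGAATTTCC stand in both chemokine promoters. Of the 8403 tested genes with a promoter entry, 166 held the narrow motif (1.98%), and 72.9% held the wider form of GGG, any 5 bases and CC on either strand, which includes it. These shares, and the count below for the genes that rose, cover the whole entry, which runs on past the start of transcription. They take a match at any listed start of a gene. Entries were found for 65 of the 85 genes that rose (76.5%) and for 67.0% of all tested genes. Both lie under the 80% needed for a comparison of shares, which is therefore void. The narrow motif stood in 8 of the 65 genes that rose and had an entry, a count that cannot be set against the share above. A match describes letters in a window and was not tested as a binding site. These 4 were chosen after the matches were seen.

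NF-kB subunit genes rose as well. Relb, which encodes the subunit of the noncanonical pathway, measured 20, 15.9 and 17.4 CPM with RG6146 and 62.7, 62.4 and 67.5 CPM with the combination, without overlap (1.85 ± 0.17, edgeR adjusted p = 1.16e-05). Its dimer partner Nfkb2 rose by 1.17 ± 0.13 and Rela, which encodes the p65 subunit, by 0.72 ± 0.11. Nfkb1, which encodes p105 and p50, stood at 0.58 ± 0.17 (adjusted p = 0.262). Thus 3 of 5 subunit genes rose, with a list median of 1.17, and all 5 rose in the fit of the 6 libraries. In the TNF receptor complex and its kinases 1 of 21 genes rose, Ikbke, a kinase of the IKK family, by 1.35 ± 0.25 (adjusted p = 0.0185). Its call ended in 5 of 15 alternatives, and the list median was -0.0036.

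Of the CXC chemokine genes, Cxcl1, a neutrophil attractant, measured 6.06, 5.42 and 4.88 CPM with RG6146 and 211, 218 and 180 CPM with the combination, a 37.1-fold rise (5.21 ± 0.33, edgeR adjusted p = 3.70e-07). Its neighbour Cxcl2, with a like function, measured 0.368, 0.187 and 0.362 CPM and then 24.9, 24.4 and 20 CPM (6.14 ± 0.45). The Cxcl2 baseline rested on 5 counts over 3 libraries against 365, a ratio of 75.4 with an exact counting interval of 32.0 to 234 that covers counting error only. Cxcl10, which attracts T cells, went from 27.4, 18.1 and 23 CPM to 123, 106 and 120 CPM (2.35 ± 0.15), and an exon of Art3 lies on its opposite strand. The fourth tested CXC or CX3C gene was not called, so 3 of 4 rose, with a median of 3.78.

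Of the monocyte chemokine genes, Ccl2 measured 143, 196 and 142 CPM with DMSO, 66.2, 53.6 and 63.6 CPM with RG6146 and 321, 325 and 287 CPM with the combination. The combination exceeded RG6146 in all libraries (2.35 ± 0.37, edgeR adjusted p = 0.00455), while TNF alone gave 1560, 986 and 342 CPM, a wide spread whose lowest library was close to the combination. Ccl7, beside Ccl2 on chromosome 11, measured 105, 143 and 120 CPM with DMSO, 33.6, 33.3 and 37.4 CPM with RG6146 and then 177, 171 and 172 CPM (2.32 ± 0.26). Ccl5, a T cell attractant, rose by 0.53 ± 0.10, a call that ended in 8 of 15 alternatives. Of 5 CC chemokines 3 rose, with a median of 1.09. Ccl20 did not pass the filter, with 0 counts over the RG6146 libraries and 8 over the combination libraries.

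Among cytokines and growth factors, 5 of 11 rose, with a median of 0.94. Csf1 measured 69.8, 56.8 and 72.9 CPM with RG6146 and 600, 636 and 604 CPM with the combination, a 9.22-fold rise (3.20 ± 0.20, edgeR adjusted p = 2.64e-07). Il23a, which encodes the p19 subunit of interleukin-23, went from 4.23, 2.24 and 4.16 CPM to 27.6, 31.9 and 41.6 CPM (3.24 ± 0.23). Both were without overlap between the groups. Ereg, an EGF receptor ligand gene, measured 12.7, 12.9 and 9.58 CPM and then 65.2, 57.0 and 62.7 CPM (2.39 ± 0.14), and Hbegf, another such ligand gene, rose by 0.94 ± 0.11. Tnf itself had 0 counts in each RG6146 library and 11, 4 and 8 in the combination libraries. Taking 3 counts over the RG6146 group as the floor, Tnf was at least 7.92-fold higher.

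Adhesion molecules for leukocytes rose, and no listed metalloprotease passed the test. Icam1 measured 2.39, 2.24 and 2.35 CPM with RG6146 and 35.5, 29.6 and 29.1 CPM with the combination (3.74 ± 0.23, edgeR adjusted p = 2.64e-07). Vcam1 went from 2.39, 2.43 and 3.07 CPM to 15.3, 13.1 and 16.4 CPM (2.49 ± 0.18), and with TNF alone it stood at 41.6, 43.6 and 39.7 CPM. Both genes separated the groups fully, and each has an exon of a predicted gene on its opposite strand. Sele, which encodes E-selectin, stood at 2.86 ± 0.53 (adjusted p = 0.0183), and its call ended in 6 of 15 alternatives. Mmp9, a gelatinase gene, stood at 0.67 ± 0.22 (adjusted p = 0.374). In total 3 of 15 adhesion and metalloprotease genes rose, with a median of 0.23.

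Of 11 innate effector genes 4 rose, with a median of 0.71. Tnfaip2, named for its induction by TNF, went from 193 ± 8.18 CPM with RG6146 to 826 ± 52.7 CPM (mean ± SD, n = 3 libraries) with the combination, without overlap (2.09 ± 0.09, edgeR adjusted p = 1.08e-08). Nod2, a sensor of bacterial cell walls, rose by 2.70 ± 0.32 and Saa3, an acute phase gene, by 1.81 ± 0.24. The fourth was Tlr2, a receptor for bacterial lipoproteins, at 2.20 ± 0.39. DESeq2 called 4 genes of this list and limma-voom 3, without Tlr2. Ptges, which encodes a prostaglandin E synthase, was the 1 of 5 prostaglandin genes that rose, from 21.1, 21.7 and 22.8 CPM to 61.8, 56.2 and 55.9 CPM (1.41 ± 0.13).

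Of the survival genes, Ier3, an early gene that protects from apoptosis, measured 1062, 1147 and 1101 CPM with RG6146 and 3587, 3405 and 3670 CPM with the combination (1.69 ± 0.10, edgeR adjusted p = 1.29e-07). Pim1, a survival kinase gene, rose by 1.21 ± 0.19, and Gadd45b by 0.74 ± 0.15 in a call that ended in 7 of 15 alternatives. These were the 3 of 14 survival genes that rose, and the list median was 0.04. Cflar, which encodes the caspase-8 inhibitor FLIP, stood at -0.02 ± 0.14 and Bcl2l1, which encodes BCL-XL, at -0.15 ± 0.12 (adjusted p = 1 for each). Traf1, an adaptor of TNF receptors, stood at 0.86 ± 0.21 (adjusted p = 0.108), and Birc3, an inhibitor of apoptosis gene, did not pass the filter, with 0 counts with RG6146, 1 with the combination and 13 with TNF alone.

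Of 18 death receptor and apoptosis genes 1 rose, with a median of 0.03. The death receptor gene Fas went from 1.84, 2.06 and 1.08 CPM to 4.03, 3.94 and 4.94 CPM, against 14.5, 12.8 and 12.6 CPM with TNF alone. Its log2 fold change was 1.37 ± 0.29 (edgeR adjusted p = 0.0486), and the call ended in 10 of 15 alternatives. Casp8, the initiator caspase of death receptors, stood at 0.38 ± 0.23 (adjusted p = 0.996).

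Immediate early genes, which respond to stimuli without new protein synthesis, had 7 of 25 members higher and a median of 0.23. Junb, an AP-1 subunit gene, measured 244, 257 and 252 CPM with RG6146 and 1096, 1204 and 1206 CPM with the combination (2.22 ± 0.18, edgeR adjusted p = 4.65e-06), and an exon of Prdx2 lies opposite it. Jun rose by 0.93 ± 0.10, Jund by 0.91 ± 0.08 and the stress factor gene Atf3 by 1.25 ± 0.15, whereas Myc stood at 0.35 ± 0.26 (adjusted p = 1). Of 14 dual-specificity phosphatase and ERK feedback genes Dusp8 rose, by 1.90 ± 0.22, with a list median of 0.15. Of 10 mRNA decay regulators 2 rose, with a median of 0.29. They were Zfp36, which encodes the AU-rich element binding protein tristetraprolin, 4.51-fold higher, and the endonuclease gene Zc3h12a, by 1.49 ± 0.30 in a call that ended in 8 of 15 alternatives.

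Of the 7 genes that fell, Id1 changed most. Id1, which encodes an inhibitor of helix-loop-helix transcription factors, measured 148, 143 and 145 CPM with RG6146 and 47.6, 55.1 and 52.9 CPM with the combination, 2.80-fold lower (-1.48 ± 0.15, edgeR adjusted p = 5.70e-05). Id2, of the same family, went from 126, 128 and 136 CPM to 71.4, 75.2 and 75.1 CPM (-0.82 ± 0.09). Neither gene overlapped between the groups. Id3 stood at -0.39 ± 0.22 (adjusted p = 0.959) and was called lower in the fit of the 6 libraries. So 2 of 11 Id and BMP genes fell, with a median of -0.0092. Arrdc3, an arrestin domain gene, fell by 1.34 on the log2 scale, from 23.2, 20 and 18.6 CPM to 9.40, 6.75 and 8.18 CPM. Ier5l, Tmem127 and Zfp260 stood at -1.09 ± 0.22, -0.66 ± 0.13 and -0.69 ± 0.14, and each of these 3 calls ended in 6 of 15 alternatives. The seventh, the predicted gene Gm22519, stood at -1.37 ± 0.28.

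**Figure D2:**
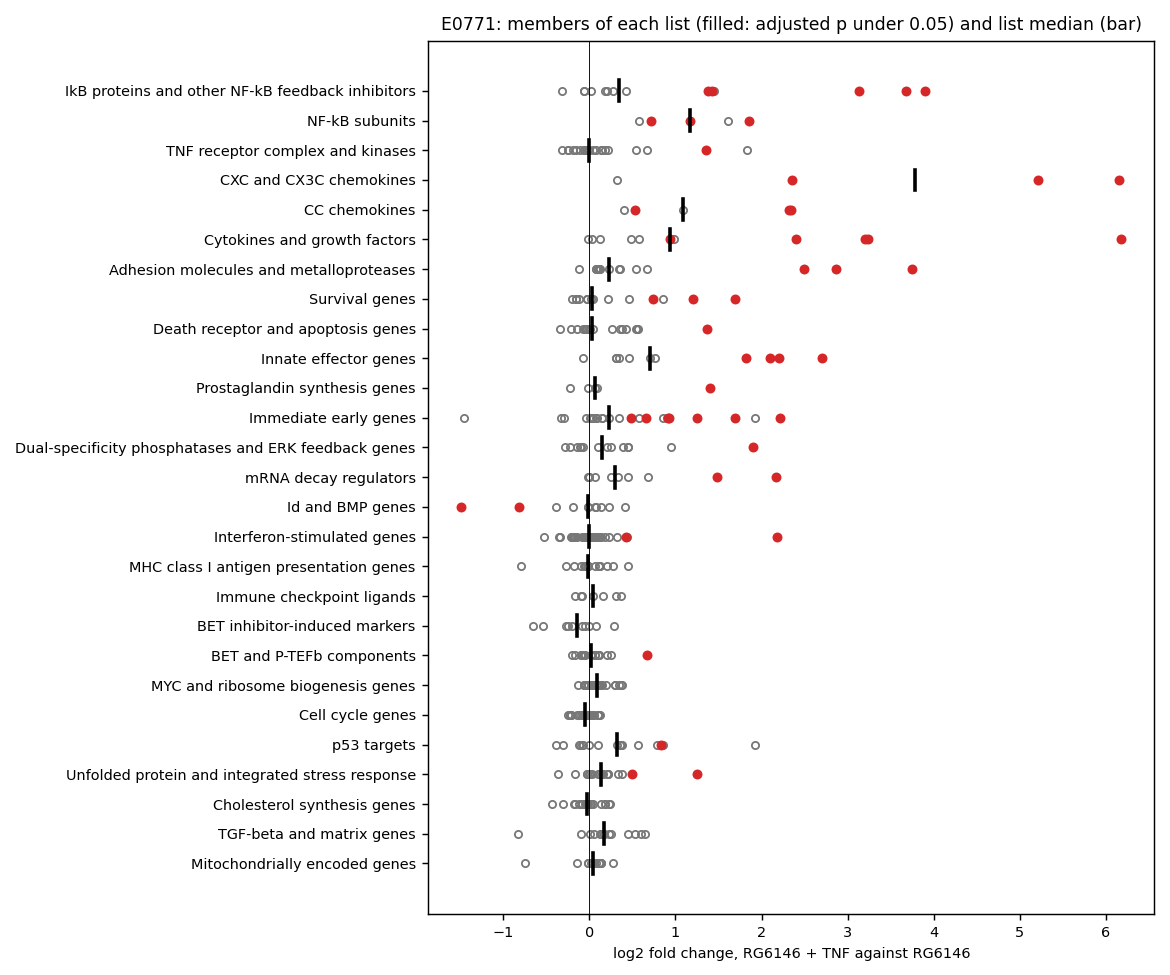
Log2 fold change of the combination against RG6146 in E0771 for every tested member of 27 gene lists, with filled points for genes at an adjusted p under 0.05, open points for the others and bars for list medians. CXC chemokines (median 3.78), NF-kB subunits (1.17) and CC chemokines (1.09) have the highest medians, and the 2 filled points left of 0 are Id1 and Id2.

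The other lists held few or no called members. Irf1, a transcription factor gene of the interferon and NF-kB pathways, measured 105, 115 and 110 CPM with RG6146 and 530, 496 and 463 CPM with the combination (2.18 ± 0.10, edgeR adjusted p = 1.08e-08). With TNF alone Irf1 stood higher, at 772, 912 and 722 CPM. It was 1 of the 2 interferon-stimulated genes that rose among 36, the other being the antiviral gene Rsad2 (0.43 ± 0.09, a call that ended in 7 of 15 alternatives), and the list median was -0.0064. Cdkn1a, the p21 gene, rose by 0.84 ± 0.11 as the 1 of 17 p53 targets (median 0.32, 9 at an unadjusted p under 0.05). In the fit of the 6 libraries 7 of the 17 rose and 1 fell. Atf3 and Herpud1 (0.50 ± 0.11, ended in 9 of 15 alternatives) were the 2 of 18 stress response genes (median 0.14), and the elongation factor gene Ell2 (0.67 ± 0.13, ended in 6 of 15) was the 1 of 17 BET and P-TEFb genes (median 0.02).

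All members were without a call in 8 further lists. Of all tested genes 12449 of 12541 were not called and 0.734% were, so lists of this size can hold no call without differing from other genes. MHC class I antigen presentation had 18 of 18 not called (median -0.02, 1 at an unadjusted p under 0.05), immune checkpoint ligands 7 of 7 (0.04, 2) and BET inhibitor-induced markers 10 of 10 (-0.14, 4). MYC and ribosome biogenesis had 31 of 31 not called (0.09, 2), cell cycle genes 31 of 31 (-0.05, 3) and cholesterol synthesis 19 of 19 (-0.03, 1), and DESeq2 and limma-voom called 0 in each of these 6 lists. TGF-beta and matrix genes had 15 of 15 not called (0.17, 4), of which DESeq2 called 1, and mitochondrially encoded genes 13 of 13 (0.05, 2), of which DESeq2 also called 1. Cd274, which encodes PD-L1, stood at 0.04 ± 0.39, and its sign changed under 3 alternatives. Hexim1, a marker of BET inhibition, measured 256, 224 and 254 CPM with RG6146 and 241, 252 and 218 CPM with the combination, against 89.0, 93.9 and 91.0 CPM with DMSO, so both compared groups lay above the solvent control.

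The fit of the 6 libraries by themselves called members in each of these 8 lists. Over all genes it called 2.92% higher and 1.51% lower, so 1 call in a list is not read as a response of that list. BET inhibitor-induced markers had 4 of 10 lower, namely Txnip and the histone genes Hist1h1c, Hist3h2a and Hist2h2be, and MHC class I had 3 of 18 higher (H2-K1, H2-D1 and Tapbp) and 1 lower (Tap2). MYC and ribosome biogenesis had 3 of 31 higher, Myc among them, and TGF-beta and matrix genes 3 of 15 higher. Cell cycle genes had 1 of 31 lower, cholesterol synthesis 1 of 19 higher, checkpoint ligands 1 of 6 higher, and mitochondrially encoded genes 1 of 13 higher and 1 lower. It also called more members in lists given earlier. Immediate early genes had 10 of 25 higher and 2 lower, phosphatase and ERK feedback genes 5 of 14 and 1, and mRNA decay regulators 6 of 10 higher. Survival genes had 5 of 14 higher and 1 lower, and death receptor and apoptosis genes 3 of 17 higher. Stress response genes had 5 of 18 higher and 1 lower, and interferon-stimulated genes 2 of 36 higher and 2 lower (Irf9 and Stat2).

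Of the 85 genes that rose 83 were protein coding (97.6%, against 83.0% of all tested genes). Their levels with RG6146 ranged from 0 to 5786 CPM with a median of 21.3 CPM, close to the 23.5 CPM over all tested genes. An exon of another gene lay on the opposite strand of 29 of them (34.1%, against 28.0%), and the strand setting of the counting is not given in the sources used here, so their counts can include such reads. In position, 11 of the 85 genes lay within 100 kb of another, in 5 places, and the count for other sets of genes was not computed. The places were Ccl2 with Ccl7 on chromosome 11, Cxcl1 with Cxcl2 on chromosome 5, Slpi, Matn4 and Sdc4 on chromosome 2, Rfx5 with Pip5k1a on chromosome 3, and Gdf15 with Jund on chromosome 8. The call of Matn4 among them gives no support, as stated above. Between Rfx5 and Pip5k1a the tested genes Pi4kb, Zfp687 and Psmd4 were not called, at 0.28, -0.43 and 0.03. Between Gdf15 and Jund the tested genes Pgpep1 and Lsm4 were not called either, at 0.05 and -0.04.

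The response with RG6146 was then read beside the response without it, TNF alone against DMSO, which called 236 genes higher (1.88%) and 55 lower (0.439%). These comparisons share no library but share 1 fit. All 85 genes that rose with RG6146 also had a positive change without it, and 76 of them were called there (89.4%). The 9 others were Nfkbiz, Il6st, Nppb, Csrnp1, Tgif2, Jund, Rsad2, Matn4 and Jun, of which Matn4 passed the filter only through the combination libraries. Seen from the other side, 103 genes were at least 2-fold higher with TNF alone at an adjusted p under 0.05, and with RG6146 all 103 were positive and 55 called (53.4%, against 0.678% of all tested genes). The count was 64 of 77 such genes when each comparison was fitted on its own 6 libraries, and 70 of the 99 still tested when the response with RG6146 was fitted without the TNF libraries. Their median log2 fold change was 1.59 without and 1.18 with RG6146, and 80 of 103 were smaller with it. When the genes were chosen by the response with RG6146, the 56 genes at least 2-fold higher there had medians of 1.90 with and 2.12 without the inhibitor, and 30 of 56 were smaller without it. Of 20 genes at least 2-fold lower with TNF alone, 20 were also negative with RG6146 and 4 were called (median -1.41 and -0.70).

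**Figure D3:**
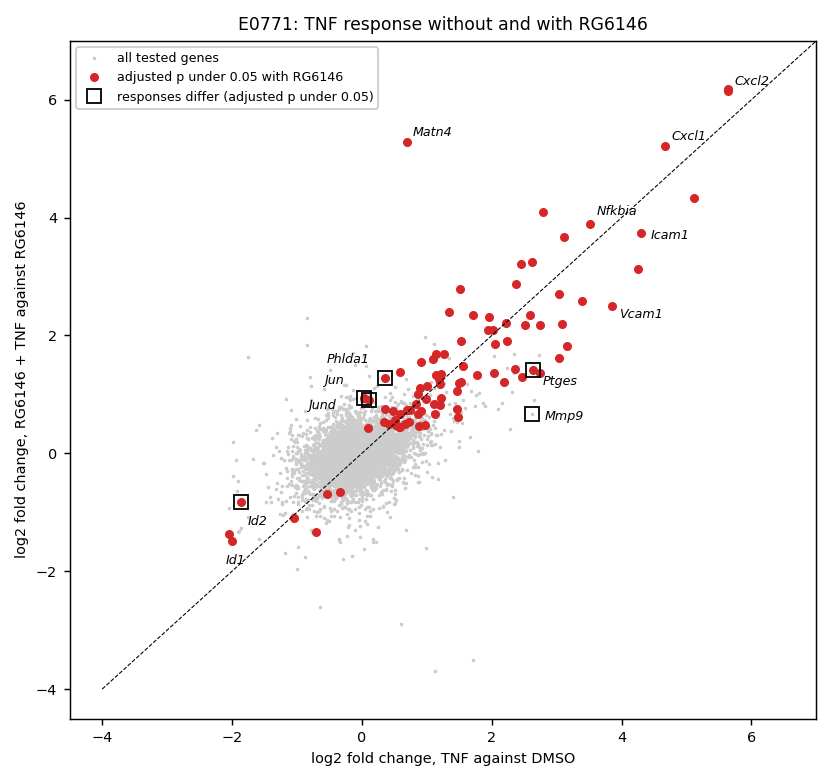
Log2 fold change of the combination against RG6146 (vertical) and of TNF against DMSO (horizontal) in E0771, one point per tested gene. Red points are the 92 genes at an adjusted p under 0.05 with RG6146, squares the 6 genes whose responses differed, and the dashed line equal responses. The red points lie in the upper right and lower left, and the squares of Jun, Jund and Phlda1 sit near 0 on the horizontal axis.

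The test of the difference between the 2 responses called 6 of 12541 genes (0.0478%), 4 with the more positive response under RG6146 (0.0319%) and 2 with the less positive (0.0159%). Phlda1, a pleckstrin homology domain gene, measured 121, 134 and 117 CPM with RG6146 and 297, 300 and 306 CPM with the combination, but 134, 134 and 132 CPM with DMSO and 165, 182 and 165 CPM with TNF alone. Its response was larger with RG6146 by 0.92 ± 0.12 (edgeR adjusted p = 0.00961). Jun measured 183, 176 and 172 CPM with RG6146 and 324, 349 and 339 CPM with the combination, whereas DMSO gave 205, 210 and 192 CPM and TNF 236, 188 and 194 CPM (difference 0.91 ± 0.13, adjusted p = 0.0268). Jund measured 186, 194 and 192 CPM with RG6146 and 339, 375 and 358 CPM with the combination, whereas DMSO gave 90.5, 88.4 and 95.3 CPM and TNF 95.3, 107 and 95 CPM (difference 0.79 ± 0.12). The fall of Id2 was smaller with RG6146 by 1.04 ± 0.13 (adjusted p = 0.00961), since TNF alone took it from 156, 172 and 176 CPM to 47.4, 49.3 and 41.7 CPM.

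The remaining pair responded less with RG6146. Ptges reached 137, 169 and 125 CPM with TNF alone from 20.3, 23.3 and 26.2 CPM with DMSO, above all combination libraries (difference -1.22 ± 0.19, edgeR adjusted p = 0.0268). Mmp9 reached 18.6, 16.8 and 21.1 CPM with TNF alone and 8.06, 9.0 and 5.70 CPM with the combination (difference -1.95 ± 0.30, adjusted p = 0.0300). Each of the 6 calls ended in 7 to 11 of 18 alternatives, most of them fits that left out 1 library, and 0 to 11 genes were called in those fits. The difference test had 427 genes at an unadjusted p under 0.05. Vcam1 and Irf1, which stood lower with the combination than with TNF alone, had differences in response of -1.36 ± 0.27 and -0.57 ± 0.14 that did not pass (adjusted p = 0.15 and 0.6).

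**Figure D4:**
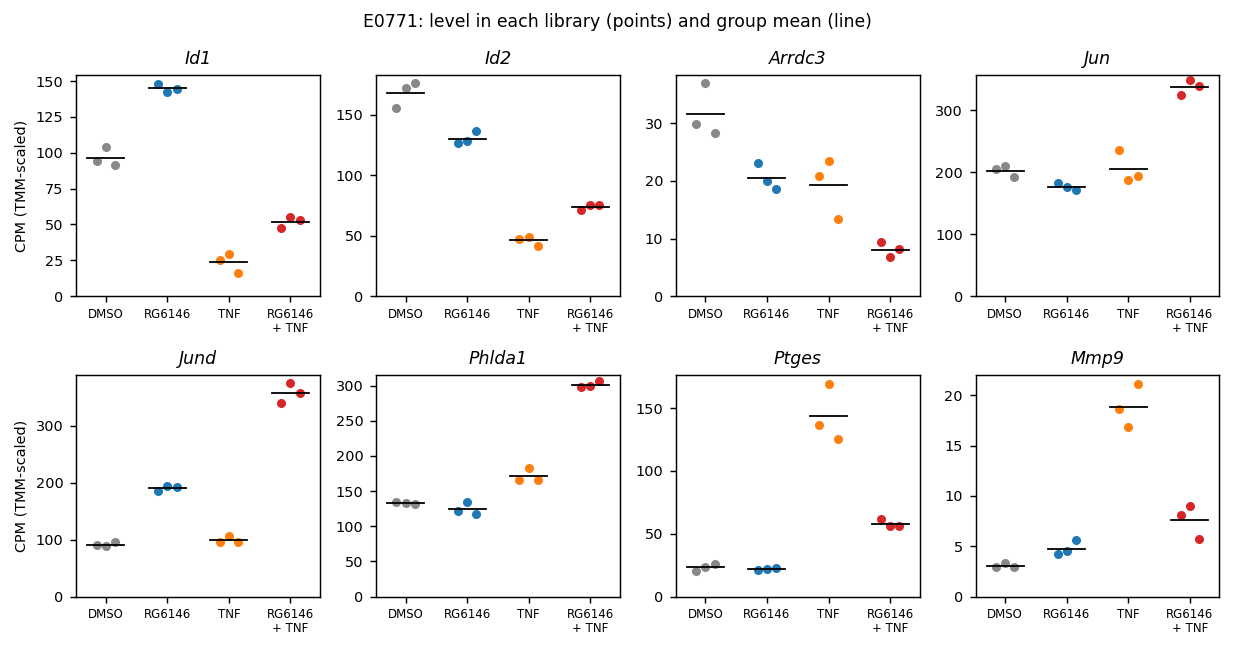
Level of 8 genes in each of the 12 E0771 libraries, in CPM after TMM scaling (linear axes from 0), by treatment, with points for libraries and lines for group means. Id1, Id2 and Arrdc3 are lower with the combination than with RG6146. Jun, Jund and Phlda1 are highest with the combination, and Ptges and Mmp9 are highest with TNF alone.

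The same comparison in MC38 called 37 genes higher (0.279%) and 2 lower (0.0151%) of 13272 tested. Of the 85 genes that rose in E0771, 74 were tested in MC38, 73 were positive and 28 were called higher (37.8%). All 37 genes that rose in MC38 were positive in E0771, and 28 were called there (75.7%). Cxcl1 rose by 6.19 ± 0.41 in MC38 and 5.21 ± 0.33 in E0771, Vcam1 by 2.33 ± 0.13 and 2.49 ± 0.18, and Cxcl10 by 3.06 ± 0.26 and 2.35 ± 0.15. Id1 and Id2 stood at -0.01 in MC38, with line differences of -1.47 and -0.80 that did not pass (edgeR adjusted p = 0.22 and 1). MC38 combination replicate 2 held 169 CPM of leukocyte markers, while the remaining MC38 libraries held 3.34 to 8.39 CPM, and without it the MC38 count was 26 and the count of genes that differed between the lines stayed at 5. The part of those markers in the MC38 values was otherwise not tested.

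A test of whether the lines responded differently called 5 of 14058 genes (0.0356%), all with the larger response in E0771. In that edgeR fit 0 genes were called with the larger response in MC38, where 441 had an unadjusted p under 0.05, and DESeq2 called 4. Other edgeR fits also called genes with the larger response in MC38: 193 of 208 called without the filter on low counts, 16 of 21 without MC38 combination replicate 1, 3 of 8 without its replicate 3 and 1 of 6 with library totals alone. Ereg rose 5.26-fold in E0771 and went from 62.2 ± 7.8 to 72.3 ± 9.4 CPM (mean ± SD, n = 3) in MC38, a difference of 2.19 ± 0.21 (adjusted p = 4.38e-06). Tnfaip2 differed by 1.51 ± 0.15, with 315 ± 12 CPM with RG6146 and 477 ± 18 CPM with the combination in MC38. Sdc4, a heparan sulfate proteoglycan gene, measured 133, 140 and 139 CPM with RG6146 and 386, 407 and 454 CPM with the combination in E0771, but 95.2 ± 13 and 127 ± 7.3 CPM in MC38, and differed by 1.19 ± 0.17. Nfkbia rose in both lines, by 3.90 ± 0.09 in E0771 and 2.85 ± 0.12 in MC38, and the difference was 1.06 ± 0.14 (adjusted p = 0.000384). Matn4, a matrilin gene between Slpi and Sdc4, had 1, 1 and 0 counts in the E0771 RG6146 libraries and 27, 34 and 27 in the combination libraries, a ratio of 45.4 with an exact counting interval of 12.2 to 381. In MC38 it had 19 counts over the RG6146 libraries and 13 over the combination libraries, and with TNF alone it had 9 in E0771. An exon of Rbpjl lies opposite Matn4. Ereg, Tnfaip2, Sdc4 and Nfkbia were called in all 18 alternatives. Matn4 passed the filter only through the E0771 combination libraries, where it is high, so its call gives no support. The number of genes called ranged from 5 to 21 when 1 library was left out.

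**Figure D5:**
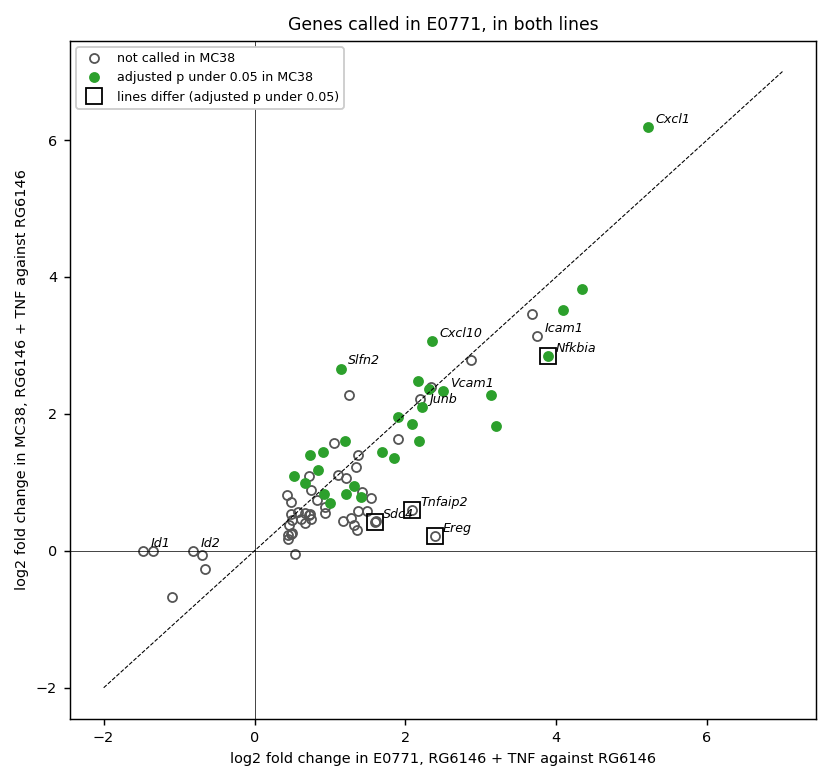
Log2 fold change of the combination against RG6146 in MC38 (vertical) and E0771 (horizontal) for the genes called in E0771 and tested in MC38. Green points are also at an adjusted p under 0.05 in MC38, squares mark 4 of the 5 genes whose responses differed between the lines (Matn4 was not tested in MC38), and the dashed line marks equal responses. Ereg, Tnfaip2, Sdc4 and Nfkbia lie below the line.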

How the data were processed

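The authors deposited 1 table of read counts per gene for 24 libraries, with 43629 identifiers; the counts are raw, per the labels and the deposited values. The QuantSeq 3′ kit was used on 500 ng RNA, followed by single-end 75 bp sequencing, per the labels' protocols. Reads were processed with bcl2fastq 2.17.1.14, cutadapt 1.14, HISAT2 2.1.0 (mm10), featureCounts of Subread 1.5.2 and limma, per the submitters' processing notes. Strand setting, annotation release and molecular barcodes: not given in the sources used here.

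The 12 E0771 libraries were fitted in 4 groups with edgeR 4.0.16 in R 4.3.3 (filterByExpr, TMM, quasi-likelihood F test, two-sided, Benjamini-Hochberg over 12541 genes, calls under 0.05), so all 4 groups share 1 estimate of spread. MC38 was fitted likewise, and the lines were compared in 1 fit of 24 libraries. SE is the size of the log2 change over the square root of F, and CPM are TMM-scaled. Sums of markers are CPM of raw totals. Symbols matched 42462 identifiers, and positions are from GENCODE vM21 (mm10). Promoters are RefSeq's on GRCm38.p6. Alternatives were other scalings, no filter, DESeq2 1.42.0, limma-voom (limma 3.58.1), a replicate block, each library left out and fewer groups in the fit. On simulated data the script recovered 83 of 100 changes of 2-fold and 100 of 100 of 4-fold, and it also called 15 unchanged genes.

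The genes, 31 lists and tests were chosen with earlier results of these data known. The rule for naming took the 15 largest changes in each direction (mean count of at least 20, no overlap), the 8 largest of each difference test, 3 called members of each list per direction and fixed genes. Genes named for their position, those without a call with TNF alone, Tnf, Tlr2, Matn4, Hbegf, Gm22519 and the markers were chosen after their values were seen. The promoters were to show the wider motif, and the narrower was shown instead because most promoters hold the wider.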

Additional observations from a re-analysis of the deposited data

Results flagged for a closer look

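A test of the difference itself picked out 6 genes whose TNF response in E0771 differed with and without RG6146, in log2 units with RG6146 minus without: Phlda1 at 0.92, Id2 at 1.04, Jun at 0.91, Jund at 0.79, Ptges at -1.22 and Mmp9 at -1.95. Each of these 6 calls ended in 7 to 11 of 18 alternatives. A like test across the lines picked out 5 genes, E0771 minus MC38: Ereg at 2.19, Tnfaip2 at 1.51, Nfkbia at 1.06, Sdc4 at 1.19 and Matn4 at 5.61, the last a fitted value that rests on 2 counts over the E0771 RG6146 libraries.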

How the results depend on the processing

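Called genes for the combination against RG6146 numbered 92, and 154 without the filter on low counts, 534 with only the 6 libraries compared, and, in fits added after seeing the data, 156 without the TNF library low in mitochondrial ribosomal RNA and 302 without the 3 TNF libraries. They numbered 57 to 69 with each library left out, 108 with DESeq2 and 81 with limma-voom. With library totals alone 69 were higher and 10 lower. For TNF against DMSO the count of 291 became 524 without the filter, 110 with only 6 libraries and 164 to 622 with a library left out. For the difference of the TNF responses the count of 6 became 27 without the filter, 13 with DESeq2 and 0 to 11 with a library left out. In MC38 the count of 39 became 355 without the filter, 63 with DESeq2, 62 with only 6 libraries and 18 to 27 with a library left out. For the line difference the count of 5 became 208 without the filter, 10 with DESeq2 and 5 to 21 with a library left out. The count of 55 carried over was 42 to 56 with a library left out, 64 of 77 with only 6 libraries and 70 of 99 without the 3 TNF libraries. The cause of these moves was not tested, except that fits of fewer libraries or with no filter differ in what is tested by construction.

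Replicate numbers are shared between groups in the labels, which do not say what a number stands for. Same-numbered RG6146 and combination libraries had correlations of deviations from -0.12 to -0.0020, and 0 of 6 libraries correlated best with their own number. With the replicate block the counts were 74 for the combination against RG6146, 219 for TNF against DMSO, 2 for the difference of the responses, 32 in MC38, 10 for the line difference, 5 of them larger in MC38, and 48 carried over.

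At 5392406 to 5539841 counts a library, genes with a few counts, such as Birc3, Ccl20 and Tnf, were at the limit of detection.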

Other observations

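Of the 92 called genes 44 belonged to none of the lists, and the following were chosen from them after their values were seen. Their calls were not followed gene by gene through the alternatives. Small changes among them may be no firmer than those of Herpud1 and Ccl5, whose calls ended in 9 and 8 of 15 alternatives. Rgs16, a regulator of G protein signalling, went from 19.8, 21.3 and 21.5 CPM with RG6146 to 82.5, 92.6 and 92.2 CPM with the combination (2.09 ± 0.17, edgeR adjusted p = 4.58e-06). Stx11, a syntaxin of membrane fusion, measured 9.37, 9.15 and 6.87 CPM and then 31.7, 30.6 and 33.1 CPM (1.91 ± 0.16). Neither gene overlapped between the groups.

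Further genes that rose were Cd40, a TNF receptor family member, which rose by 0.83 ± 0.16, the interferon gamma receptor chain gene Ifngr2 by 1.32 ± 0.22, the atypical chemokine receptor gene Ccrl2 by 2.58 ± 0.42 and Il6st, the shared chain of interleukin-6 family receptors, by 0.54 ± 0.11. Among transcription factor genes Ets1 rose by 0.57 ± 0.12, Rbpj, the nuclear effector of Notch, by 0.45 ± 0.09, and Spib from 5 to 88 counts over 3 libraries each, a ratio of 18.2 with an exact counting interval of 7.5 to 57.4. Adamts4, a secreted metalloprotease gene, rose by 1.35 ± 0.18. The predicted gene Gm16685, with an exon of Il7 on its opposite strand, had 0.184, 0.187 and 0.181 CPM with RG6146 and 4.03, 4.31 and 3.99 CPM with the combination. Mt2, a metallothionein gene at a high level in all groups, measured 5279, 6392 and 5687 CPM and then 8464, 8163 and 7796 CPM (0.49 ± 0.09).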
